A study of Mus musculus with 8 samples.

Results

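Oxidative phosphorylation transcripts were followed in RNA-Seq of distal lung epithelium from mice of the control genotype (α7G) and from mice that carry a point mutation in the nicotinic acetylcholine receptor alpha7 (α7E260A:G), with and without exposure to side-stream cigarette smoke (CS). Genes were taken by symbol, as the mitochondrially encoded Nd, Co, Cytb and Atp genes and the nuclear genes whose names begin with Nduf (followed by a, b, c, s or v and a digit), Uqcr, Cox4 to Cox8 or Atp5, together with Sdha, Sdhb, Sdhc, Sdhd and Cyc1. These were 101 of the 22756 genes counted, 13 encoded by mitochondrial DNA (mtDNA) and 88 by nuclear DNA. Of the 101, 95 are annotated subunits of complexes I to V, and the names of another 6 (Atp5l-ps1, Atp5s, Atp5sl, Cox4nb, Cox7a2l and Ndufa4l2) fit the rule although these are a pseudogene, other factors or a related protein. By complex, the nuclear subunits were 36 of complex I, 4 of complex II, 9 of complex III, 18 of complex IV and 15 of complex V, and the mitochondrial ones were 7, 0, 1, 3 and 2. Ndufa4, named as a complex I gene, was placed with complex IV, where its protein is found.

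There were 8 libraries in 4 groups, α7G control, α7G CS, α7E260A:G control and α7E260A:G CS, with 1 male and 1 female library in each group. All mice were adults of predominantly C57BL/6 background, and both lines carry the Chrna7-IRES-tauGFP reporter, so the α7G controls share the reporter and lack only the point mutation. CS-exposed mice received smoke over 4 months, 5 days a week, and control mice breathed room air. Cells of the lavaged, dissociated distal lung were depleted of CD45+ cells before mRNA was isolated by its poly(A) tail. The number of mice behind each library is not given in the sources used here, so the spread between libraries mixes sex, animals and preparation. The total counts lay between 8020726 and 10944100, at which 3 counts correspond to a CPM (count scaled to the library total) of 0.27 to 0.37. Markers of the airway and alveolar epithelium were present in all 8 libraries, with summed levels of 20221 to 79779 for club cell transcripts and 4465 to 31409 for alveolar type II transcripts, in CPM after TMM normalisation (normalised CPM, the scale of all levels given here). Alveolar macrophage transcripts summed to 10533 to 21203 in the 4 α7G libraries and to 24772 to 51757 in the 4 α7E260A:G libraries, and type II transcripts to 20189 to 31409 and 4465 to 16293 respectively. Leukocyte transcripts summed to 2626 to 5160 over the 8 libraries, with Ptprc, the gene of CD45, at 789.9 to 1774. General epithelial transcripts summed to 988 to 1949. In such bulk libraries fewer cells of a type and less RNA per cell cannot be told apart.

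The respiratory chain sits in the inner mitochondrial membrane, where complexes I (NADH dehydrogenase), III (cytochrome bc1) and IV (cytochrome c oxidase) pass electrons to oxygen and pump protons, complex II (succinate dehydrogenase) feeds in electrons without pumping, and complex V (ATP synthase) uses the proton gradient to make ATP. All but complex II are built from subunits of both genomes. The mitochondrial subunits are transcribed within mitochondria as long polycistronic RNAs from both strands and cut into single mRNAs, whereas the nuclear subunits are transcribed one gene at a time and imported. In the lung this machinery is prominent in type II, club and ciliated cells, and mtDNA-derived segments and processed pseudogenes of the subunits are scattered through the nuclear genome.

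Such copies set apart a group of subunits with few or no counts. For every coding sequence (CDS), the share of its 50-base windows that occur elsewhere in the mm9 genome was counted. In 11 genes 99% or more of the windows had an exact second copy, and their mean counts over the libraries were between 0 and 65.5, so none of them reached the mean of 200 counts required for testing. They were mt-Co2, mt-Co3, mt-Atp6, mt-Atp8, mt-Nd3 and mt-Nd4l in mtDNA, and Cox7c, Ndufb4, Atp5g1, Atp5g2 and Atp5l in the nucleus. Of the 54 genes with no copied window, 44 were tested, as were 23 of 24 with copies in up to 40% of windows and 9 of 12 between these classes. The same 11 genes came out with 36-base windows, and 9 of them with 100-base windows. The read length and the treatment of reads with more than 1 position are not given in the sources used here, and the part of the copies in these counts was not tested.

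The 6 mitochondrial genes lie side by side. Bases 6390 to 11042 of the 16299-base mouse mtDNA aligned with chromosome 1 (mm9 24618374 to 24623027, minus strand) over 4654 bases with 2 mismatches and 1 gap base, an identity of 99.936%. All of mt-Co2, mt-Atp8, mt-Atp6, mt-Co3, mt-Nd3 and mt-Nd4l, 31.3% of mt-Co1 and 63.6% of mt-Nd4 fall inside this stretch. The start of mt-Co2, which encodes the copper-binding subunit of cytochrome c oxidase, is shown with its copy because the 2 are identical letter by letter, and the gene was at 0 counts in all 8 libraries. The place where the copy begins within mt-Co1, the catalytic subunit, is shown because its 5′ side can be told from chromosome 1 and its 3′ side almost cannot. Capitals mark the bases inside the alignment, where the only difference among 30 bases is A4T (mtDNA base first, counted from 1 at the first capital), against 21 differences in the 30 bases before it. All 4 are in NCBIM37 (mm9) coordinates.
mt-Co2, chrM:7013-7072, plus strand: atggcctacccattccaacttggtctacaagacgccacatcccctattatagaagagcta
copy of mt-Co2, chr1:24622345-24622404, minus strand: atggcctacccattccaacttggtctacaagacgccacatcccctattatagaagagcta
mt-Co1, chrM:6360-6419, plus strand: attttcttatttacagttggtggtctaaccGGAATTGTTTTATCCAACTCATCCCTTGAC
chromosome 1 at mt-Co1, chr1:24622998-24623057, minus strand: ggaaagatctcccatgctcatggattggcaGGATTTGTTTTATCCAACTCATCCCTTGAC

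A nuclear gene with an unspliced copy is set beside one of like size without a copy. Cox7c, a small subunit of cytochrome c oxidase, has its CDS of 189 bases in 2 exons on chromosome 13, and the identical 189 bases stand unspliced on chromosome 11. It had 5 to 26 raw counts per library. Atp5e, the epsilon subunit of ATP synthase, is of like size, with 156 bases in 2 exons on chromosome 2 and no copied window, and it had a mean of 195.9 normalised CPM. The levels of Cox7c and Atp5e are in unlike units, and the part of the copy in them was not tested. Both sequences are given with the exons joined, and neither has bases in capitals.
Cox7c, chr13:86185361-86186280, minus strand: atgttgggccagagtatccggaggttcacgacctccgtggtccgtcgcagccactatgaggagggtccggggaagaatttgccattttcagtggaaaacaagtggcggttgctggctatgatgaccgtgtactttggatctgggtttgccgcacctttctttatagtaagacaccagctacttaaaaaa
copy of Cox7c, chr11:75413268-75413456, minus strand: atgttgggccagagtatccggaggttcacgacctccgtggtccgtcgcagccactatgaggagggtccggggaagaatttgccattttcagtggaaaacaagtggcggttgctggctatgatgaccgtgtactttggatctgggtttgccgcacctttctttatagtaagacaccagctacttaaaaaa
Atp5e, chr2:174288007-174289497, minus strand: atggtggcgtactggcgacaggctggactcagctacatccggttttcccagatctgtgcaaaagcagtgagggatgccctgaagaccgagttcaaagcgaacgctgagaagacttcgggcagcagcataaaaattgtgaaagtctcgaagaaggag

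**Figure D1:**
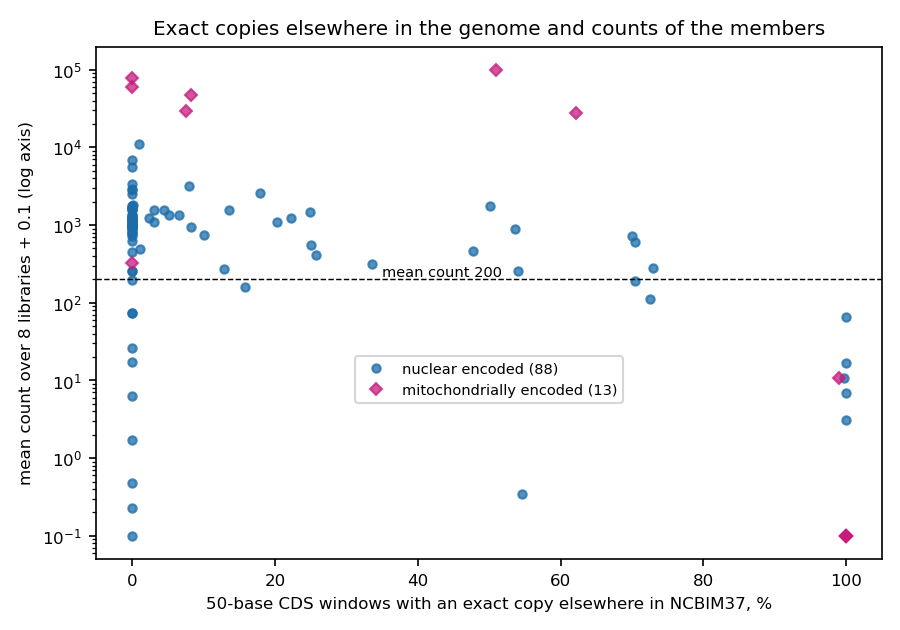
Mean count per gene over the 8 libraries plus 0.1 (log axis) against the share of the gene's 50-base CDS windows with an exact second copy in the genome (percent), with 1 point per gene, mitochondrial genes as diamonds and nuclear genes as circles, and the testing minimum as a dashed line. The 11 genes at 99% or more lie at 65.5 mean counts or lower, under the testing minimum of 200.

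With these genes set apart, 76 members were tested, 7 mitochondrial and 69 nuclear, by complex 32, 4, 9, 10 and 11 nuclear subunits of complexes I to V and 3 genes that are not subunits. The 7 mitochondrial genes held most of the signal. Their CDS counts (with the few counts of mt-Nd3) summed to 21459 to 53121 normalised CPM, which was 2.28% to 5.49% of all counts in a library, against 6949 to 16509 normalised CPM and 0.739% to 1.52% for the 82 nuclear subunits. Per kb of CDS, mt-Cytb of complex III had a mean of 7567 normalised CPM, mt-Co1 7171, mt-Nd1 7025, mt-Nd2 5062, mt-Nd4 2233 and mt-Nd5 1824. mt-Nd6, the single member encoded on the other strand of mtDNA, stood far below at 70.7 per kb. The libraries were selected by poly(A) tail. The part of that selection in the level of mt-Nd6, and in its differences between libraries, was not tested. Counted per 1000 windows that have no copy, mt-Nd4 was at 6130 and mt-Co1 at 15128 normalised CPM, so the order among these genes depends on which part of the CDS is taken as countable. mt-Nd5 and mt-Nd6 overlap by a few bases at their 3′ ends on opposite strands (chrM 13552 to 13565), and since the strand setting of the counting is not given in the sources used here, reads in that overlap cannot be assigned.

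Among the tested nuclear genes the levels per kb ranged from Atp5sl at 36.2 and Cox4nb at 46.3, neither of them a subunit, to Cox6b1 at 1488 normalised CPM per kb. Cox6b1 bridges the monomers of the cytochrome c oxidase dimer. It was followed by Atp5e (1256), Cox4i1 (1229, a regulatory subunit of complex IV), Uqcrh (1099, the hinge protein of complex III) and Ndufa4 (817.5). The lowest subunit was Ndufs1, the largest iron-sulfur subunit of complex I, at 64.7. The spread between libraries was wide against these steps. Cox6b1 ranged from 711.1 to 2799 per kb and Atp5e from 439.0 to 2313, although within each of the 8 libraries Cox6b1 was above Cox4i1 and Cox4i1 above Uqcrh.

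The nuclear members were short. Their CDS had a median of 453 bases (156 to 2181) and 63.8% were at most 600 bases, against a median of 1547 bases and 10.3% for all 7190 tested genes. The mitochondrial members had a median of 1144 bases (516 to 1821). This bears on every comparison below, since the libraries differed in how a gene's level depended on the length of its CDS. The slope of the log2 level on log2 CDS length, relative to the mean of the libraries, was 0.41 in the male α7E260A:G control, 0.23 in the male α7G control, 0.19 in the male α7E260A:G CS library and 0.06 in the female α7G control. It was −0.20 in both the female CS libraries, −0.24 in the male α7G CS library and −0.24 in the female α7E260A:G control. Long transcripts were thus relatively higher in the first 4 libraries and short ones in the other 4.

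The nuclear members followed that division. Relative to the mean over all libraries, their median log2 deviation was −0.90, −0.67, −0.49 and −0.21 in the first 4 libraries (male α7E260A:G control, male α7G control, male α7E260A:G CS and female α7G control), and 0.39 to 0.85 in the other 4. The male α7E260A:G control was the lowest library for 61 of 69 nuclear members and the female α7E260A:G control the highest for 45. After the length trend of each library was removed over all tested genes, the median deviations ran from −0.26 to 0.28, with the sign of each library kept. The mitochondrial members were arranged otherwise. The female α7G control, whose nuclear median was below the mean, was the highest library for 6 of 7 of them, with a median deviation of 0.57 (0.58 without the trend), and the male α7E260A:G libraries were the lowest, at −0.81 and −0.62.

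**Figure D2:**
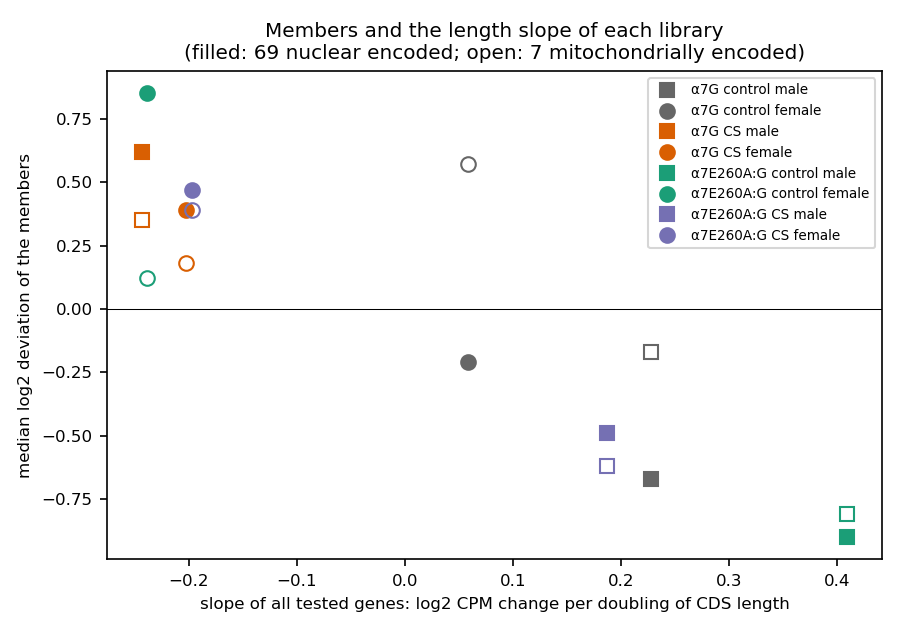
Median log2 deviation of the 69 nuclear and the 7 mitochondrial members from the mean of the libraries, against each library's slope of log2 level on log2 CDS length, with filled points for nuclear and open points for mitochondrial members, squares for male and circles for female libraries. The nuclear medians are below 0 in the 4 libraries with a positive slope and above 0 in the 4 with a negative slope, while the mitochondrial median is highest (0.57) in the female α7G control with a slope of 0.06.

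The first comparison was CS against control in α7G mice. Nuclear subunits were at higher levels in both CS libraries in every complex, and the mitochondrial sums were not. The summed nuclear subunits of complex I were at 2258 and 2922 normalised CPM in the male and female controls and at 4960 and 4249 after CS. Those of complex IV were at 1083 and 1600 before and 3060 and 2539 after, and those of complex V at 2859 and 3609 before and 4707 and 4199 after. For complex III the values were 895.6 and 1094 against 1731 and 1470, and for complex II, which has no mitochondrial subunit, 626.9 and 669.8 against 806.0 and 770.8. In each of the 5 complexes both CS libraries lay above both controls. The mitochondrial subunits of complex I, by contrast, summed to 16121 in the male and 26167 in the female control and to 22961 and 18309 after CS, with both CS values between the controls. Summed marker transcripts of several cell types were also higher in both CS libraries than in both controls. They went from 1076 and 1317 to 1775 and 1774 normalised CPM for fibroblasts and smooth muscle. For alveolar macrophages they went from 10533 and 16546 to 16727 and 21203, and for endothelium from 660.6 and 628.4 to 753.5 and 718.4. General epithelial sums went from 1154 and 1575 to 1949 and 1688, and club cell sums from 46551 and 61851 to 62968 and 79779. Leukocyte, ciliated and red blood cell precursor sums after CS lay between their controls (leukocyte 4858 and 2882 before, 3688 and 3687 after). Type II sums overlapped. Within the higher lists some genes were lower in both CS libraries, as Mrc1 (788.5 and 765.3 before, 407.3 and 510.2 after), Vwf and Cdh1. The part of these marker transcripts in the values of the members was not tested. The mitochondrial subunits of complexes III and IV lay between their controls in the same way as those of complex I, at 11214 and 9057 against 7212 and 12411 for mt-Cytb and at 13020 and 12268 against 9219 and 14542 for mt-Co1.

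**Figure D3:**
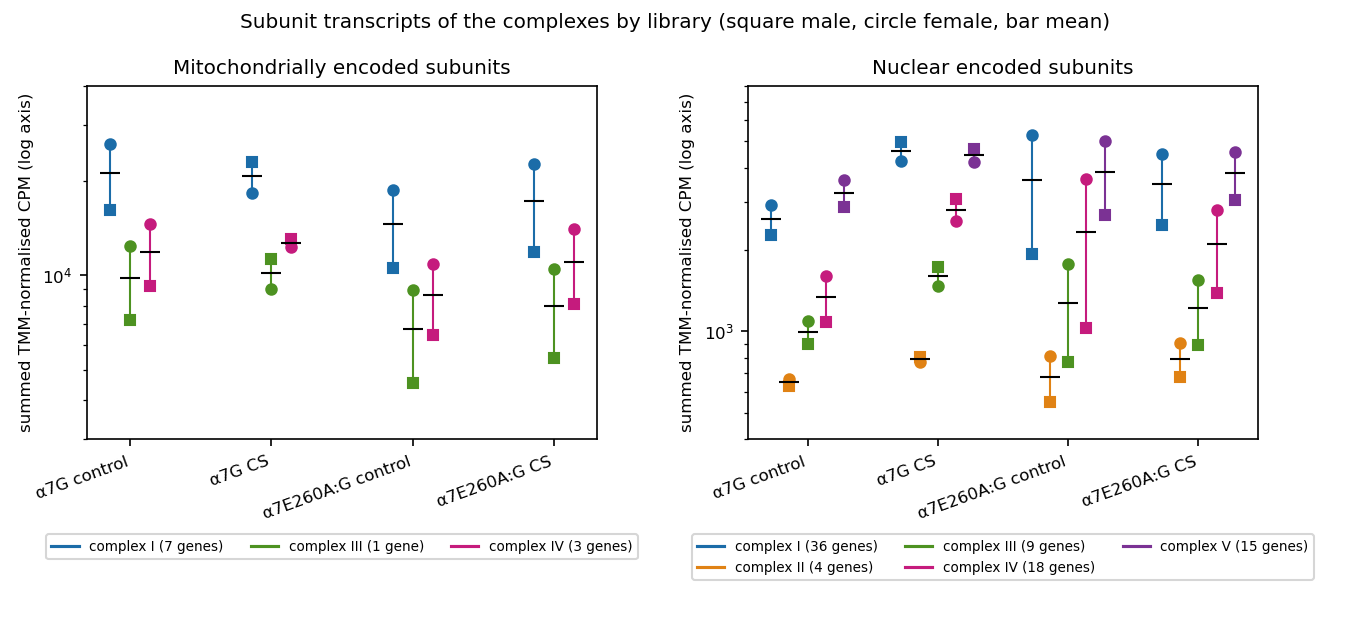
Summed level of the mitochondrial and of the nuclear subunits of each complex (normalised CPM, log axis) in the 8 libraries, with squares for male and circles for female libraries and a bar at the mean of each pair. In α7G the nuclear sums of all 5 complexes are higher in both CS libraries than in both controls (complex IV 3060 and 2539 against 1083 and 1600), while the mitochondrial sums after CS lie between the male and the female control.

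By edgeR's quasi-likelihood test over all 8 libraries none of the 76 members passed an adjusted p of 0.05 for this comparison, and neither did any of the 7190 genes (0%). At an unadjusted p under 0.05 there was 1 member (Ndufb2) among 480 genes, and DESeq2 called 0 members. The median log2 fold-change was 0.89 for the nuclear members (67 of 69 above 0), 0.04 for the mitochondrial ones (4 of 7) and −0.02 for all tested genes. When libraries were scaled by their total counts alone, the median of all genes moved by −0.12 and that of the mitochondrial members turned to −0.05. The latter was also below 0 with wider gene filters (−0.08 and −0.09) and without the male control (−0.28) or the male CS library (−0.10). Levels in both CS libraries exceeded those in both controls for 66 members, all nuclear, where 29.9% of all tested genes did so. They were under both controls for 2 members, mt-Nd5 and mt-Nd6, against 33.3% of all tested genes.

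The nuclear gene with the highest log2 fold-change was Ndufb2, an accessory subunit in the membrane arm of complex I, at 28.9 and 35.98 normalised CPM in the male and female control and 83.3 and 79.1 after CS (log2 fold-change 1.34 ± 0.54 SE, edgeR adjusted p = 0.589). Ndufa3, another accessory subunit of complex I, was at 86.4 and 127.4 before and 294.6 and 239.2 after (1.34 ± 0.66). Cox8a, a small subunit of complex IV, was at 54.6 and 76.8 before and 180.0 and 146.7 after (1.33 ± 0.58). In all 3 genes the groups did not overlap, and the lower CS library was above the higher control by more than the controls differed from each other.

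The larger catalytic and core subunits were at the other end. Sdha, the flavoprotein of complex II, was at 336.4 and 332.3 before and 346.3 and 335.0 after (0.04 ± 0.19, edgeR adjusted p = 0.925). Ndufs1 was at 138.7 and 129.8 before and 132.4 and 126.9 after (−0.03 ± 0.23), and Atp5a1, the alpha subunit of the ATP synthase head, at 758.8 and 886.2 before and 840.1 and 725.4 after (−0.06 ± 0.23). Its partner Atp5b, which carries the catalytic sites, was at 997.8 and 1219 before and 1428 and 1279 after (0.31 ± 0.29). These 4 genes have CDS of 1587 to 2181 bases, and Ndufb2, Ndufa3 and Cox8a of 207 to 360 bases.

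Between these ends lay the core subunits of moderate length. Ndufs7, which holds the last iron-sulfur cluster before ubiquinone, was at 67.8 and 67.0 normalised CPM in the male and female α7G controls and at 108.4 and 115.7 after CS (log2 fold-change 0.75 ± 0.35 SE, and 0.30 ± 0.17 with the CDS offset described next). Its controls lay closer together than its CS libraries, and the groups were well apart. Its neighbour Ndufs8 was at 73.0 and 82.9 before and 155.5 and 120.0 after (0.84 ± 0.51), and Ndufv2, an iron-sulfur subunit at the NADH end, at 86.9 and 117.0 before and 184.3 and 160.1 after (0.77 ± 0.47). Ndufs3, with 789 bases like Ndufv2, had 0.79 ± 0.40, and 47.8% of its windows have a copy.

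In complex III the Rieske protein Uqcrfs1 was at 95.9 and 136.7 normalised CPM in the α7G controls and at 188.7 and 163.3 after CS (0.62 ± 0.42). Cyc1, the cytochrome c1 subunit, was at 79.7 and 101.8 before and 139.8 and 113.0 after (0.49 ± 0.32). In complex IV Cox5a was at 77.0 and 124.5 before and 224.7 and 189.6 after (1.06 ± 0.58), and Cox5b at 34.4 and 44.7 before and 104.2 and 89.9 after (1.31 ± 0.60). Cox5b is the zinc-binding subunit on the matrix side. In complex V the gamma subunit Atp5c1, the rotor shaft, was at 241.7 and 301.3 before and 404.4 and 401.4 after (0.59 ± 0.47), Atp5d of the same stalk at 125.7 and 150.8 before and 255.6 and 231.6 after (0.83 ± 0.39), and Atp5g3, the one gene of the membrane ring that was tested, at 186.1 and 241.8 before and 449.6 and 381.4 after (0.97 ± 0.55). For all of these genes both CS libraries were above both controls, and none was called by edgeR.

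Sorted by CDS length, the nuclear members had median log2 fold-changes of 1.17 (up to 300 bases, 15 genes), 1.07 (300 to 450, 19 genes), 0.82 (450 to 600, 10 genes), 0.76 (600 to 1000, 14 genes), 0.46 (1000 to 1500, 7 genes) and 0.00 (1500 to 2500, 4 genes). Tested genes outside the set had 0.87, 0.75, 0.56, 0.33, 0.11 and −0.12 in the same bins. In each bin the members were above the other genes, and both declined with length. With a CDS length offset in the edgeR fit, which takes out each library's length trend, the medians of the members were 0.19, 0.34, 0.26, 0.31, 0.34 and 0.17, and those of the other genes −0.08 to 0.01. The median of all 69 nuclear members went from 0.89 to 0.29 with this offset, with 61 of 69 above 0, and to 0.11 with an offset for the length of the whole transcript, while the 7 mitochondrial members went from 0.04 to −0.16 and −0.58. With the CDS offset 0 of 76 members were called, 5 members (mt-Nd6, Cox6a1, Cox5b, Ndufa3 and Ndufb2) among 580 genes had an unadjusted p under 0.05, and 55 nuclear members were above both controls (28.7% of all genes). The 6 members under both controls with the trend removed were mt-Nd5, mt-Nd6, Atp5e, Cox7a2l, Sdhc and Uqcrb (22.1% of all genes).

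**Figure D4:**
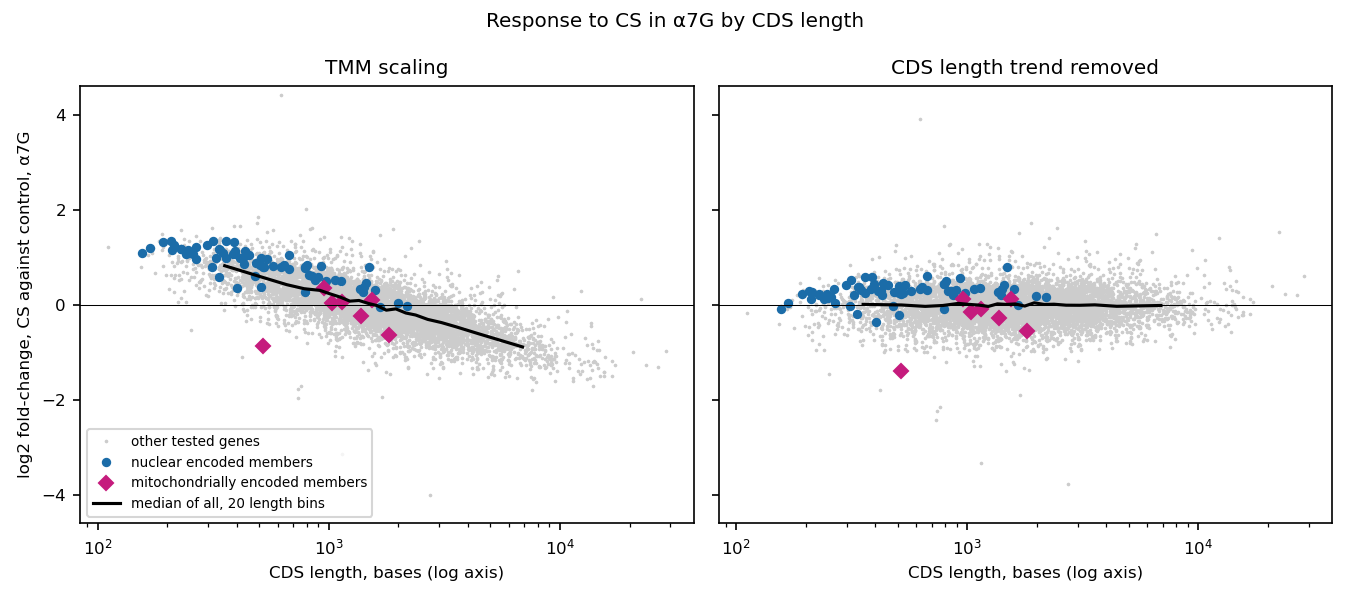
Log2 fold-change of CS over control in α7G (edgeR, 8 libraries) against CDS length in bases (log axis) for nuclear members (circles), mitochondrial members (diamonds) and other tested genes (grey), with a line at the median of all genes in 20 length bins, on the left with TMM scaling and on the right with the CDS length trend removed. On the left the fold-change of the nuclear members declines from a median of 1.17 at up to 300 bases to 0.00 above 1500, the other genes decline from 0.87 to −0.12, and mt-Nd5 and mt-Nd6 lie at the bottom.

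The complexes differed in their medians. The median log2 fold-change of the nuclear members was 1.12 in complex IV, 0.90 in complex I, 0.83 in complex V, 0.61 in complex III and 0.48 in complex II. With the CDS offset the medians were 0.26, 0.34, 0.26, 0.26 and 0.08, and with the transcript length offset 0.21, 0.14, 0.05, 0.05 and 0.07. Within complex I the 25 accessory subunits had a median of 1.04 and the 7 core subunits of the matrix arm, which hold the flavin and iron-sulfur centres, of 0.75. Their CDS medians were 411 and 789 bases, and with the CDS offset both groups had 0.34. With the transcript length offset the accessory subunits had 0.20 and the core subunits 0.05, so the difference depended on the length used. Atp5e with its 156 bases went from 1.08 ± 0.76 to −0.09 ± 0.16, and Uqcrb, a small subunit of complex III, from 0.59 ± 0.59 to −0.20 ± 0.20. Uqcrc1, a core protein of complex III with 1440 bases, stayed at 0.46 ± 0.25 without and 0.42 ± 0.20 with the offset. Ndufv3, an accessory subunit of complex I with a short and a long form and an annotated CDS of 1490 bases, stood apart from members of like length, at 65.2 and 90.5 normalised CPM in the α7G controls and 135.7 and 132.0 after CS (0.80 ± 0.59, and 0.78 ± 0.51 with the offset). It was named after its values were seen.

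The number of called members depended on which libraries gave the spread. A fit of the 4 α7G libraries alone called 47 of 69 nuclear members, all higher with CS, and 0 of 7 mitochondrial members, where it called 7.5% of all tested genes as higher. The 47 were 26 of 32 in complex I, 1 of 4 in complex II (Sdhb), 4 of 9 in complex III, 9 of 10 in complex IV and 7 of 11 in complex V. The smallest adjusted p was 0.0147 (Ndufb2, Ndufb8, Cox5b and Cox8a), and the CDS of the 47 had a median of 387 bases. Left out were Ndufs1, Ndufv1, Sdha, Atp5a1 and Atp5b among others. When the CDS offset was added to this fit, 0 of 76 members were called, with the share of all genes not given here. Without the male CS library it called 14 members of 295 called genes, without the male control 33 of 620, without the female CS library 40 of 649 and without the female control 60 of 2408. In each of these fits 1 group is a single library, which is assumed to vary like the other group.

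**Figure D5:**
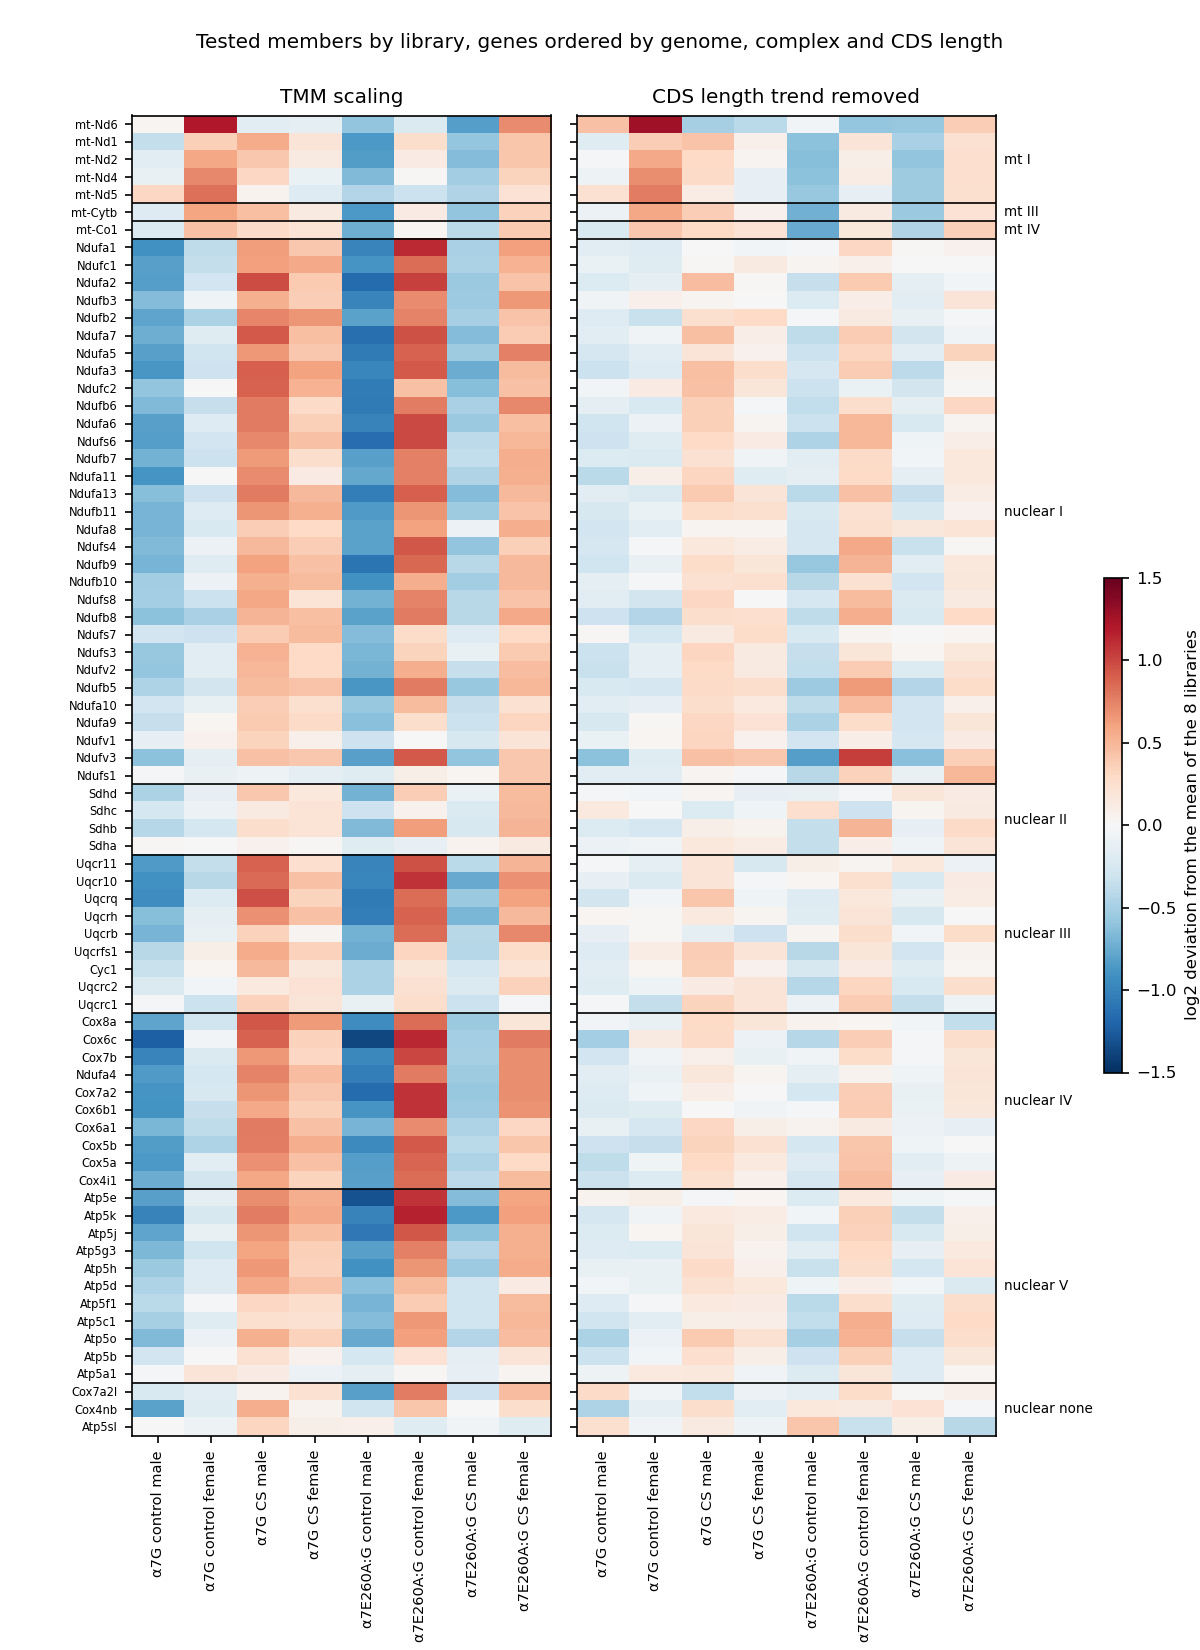
Log2 deviation of the tested members, 1 of them not shown, from their means over the 8 libraries, with genes in rows ordered by genome, complex and CDS length and libraries in columns, with TMM scaling on the left and the CDS length trend removed on the right. On the left most nuclear rows are high in the 2 α7G CS libraries and in the female α7E260A:G libraries and low in the other 4, and the contrast is smaller on the right, whereas most mitochondrial rows are highest in the female α7G control.

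The male and the female pair differed in size. CS over control in α7G had a median log2 ratio of 1.31 over the nuclear members in males (68 of 69 above 0) and 0.61 in females (68 of 69), and of 0.42 and 0.18 after removal of the length trend. For the mitochondrial members the medians were 0.54 in males (5 of 7 above 0) and −0.39 in females (0 of 7). For 5 of the 7 mitochondrial genes the direction therefore differed between the sexes.

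mt-Nd5 and mt-Nd6, both complex I subunits of the proton-pumping membrane arm, were the members with the lowest log2 fold-changes. mt-Nd5 was at 3935 and 5641 normalised CPM in the male and female α7G controls and at 3300 and 2788 after CS (−0.64 ± 0.34 SE, edgeR adjusted p = 0.589). mt-Nd6 was at 33.6 and 75.9 in the controls and at 29.6 and 29.8 after CS (−0.87 ± 0.56, and −1.40 ± 0.38 with the CDS offset, adjusted p = 0.579). The groups did not overlap for either gene, although for mt-Nd6 the male control was close to the CS libraries and the female control alone was far above.

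Set against mt-Nd1, the mitochondrial member with the highest log2 fold-change in this comparison, mt-Nd5 showed a wider division. The count ratio of mt-Nd5 to mt-Nd1, which needs no scaling between libraries, was 0.791 and 0.692 in the α7G controls and 0.353 and 0.383 after CS. The α7E260A:G controls had ratios of 0.671 (male) and 0.333 (female), and the CS libraries 0.548 and 0.436. The 4 libraries with a positive length slope were those with ratios above 0.5. The CDS of mt-Nd5 has 1821 bases and that of mt-Nd1 954, and the part of length in this ratio was not tested. Against mt-Nd2, mt-Cytb and mt-Co1 the ratios of mt-Nd5 in both α7G controls were also above those after CS. Against mt-Nd4 they were nearer, at 1.441 and 1.158 in the controls and 0.902 and 1.018 after CS. Against mt-Nd6 they overlapped, at 117.0 and 74.3 in the controls and 111.6 and 93.6 after CS. mt-Nd1 itself was at 4977 and 8157 in the α7G controls and 9360 and 7283 after CS (0.36 ± 0.53), with overlap of the groups. The others overlapped as well. mt-Nd2 was at 4445 and 7421 in the controls and 6610 and 5468 after CS (0.04 ± 0.51), and mt-Nd4 at 2730 and 4870 before and 3660 and 2739 after (−0.23 ± 0.46). mt-Nd3, inside the copied stretch, had 10 and 26 counts before and 13 and 9 after, too few for a comparison.

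The balance between the genomes was taken as the ratio of the summed mitochondrial to the summed nuclear counts, which is free of any scaling between libraries. It was 4.22 and 5.37 in the male and female α7G controls and 3.09 and 2.996 after CS. The 4 α7E260A:G libraries had 3.09 and 2.33 in the controls and 2.99 and 3.28 after CS. Both α7G controls were above the other 6 libraries, and the α7E260A:G values of the 2 exposures overlapped. By complex the same ratio in the α7G controls was 7.14 and 8.96 for complex I against 4.63 and 4.31 after CS, 8.05 and 11.3 against 6.48 and 6.16 for complex III, and 8.51 and 9.09 against 4.26 and 4.83 for complex IV. The mitochondrial side of complex IV was mt-Co1 alone, since mt-Co2 and mt-Co3 were at 0. For complex V no ratio could be formed, since mt-Atp6 and mt-Atp8 were at 0. On the fitted scale the median of the mitochondrial minus that of the nuclear members was −0.84 (log2) for CS in α7G, and −0.45 with the CDS offset. These ratios describe sums over chosen genes and carry no test.

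The second comparison was CS against control in α7E260A:G mice. No member was called by edgeR, nor was any gene (0%), and 0 members against 122 genes had an unadjusted p under 0.05. DESeq2 also called 0 members. The male CS library stood apart in red blood cell precursor transcripts, which summed to 8806 normalised CPM there and to 217.5 to 1996 in the other 7 libraries. Their part in the values of the members was not tested. The median log2 fold-change was −0.14 for the nuclear members (16 of 69 above 0), 0.18 for the mitochondrial members (7 of 7) and −0.04 for all genes. The 2 sexes were unlike each other. Among males 67 of 69 nuclear members were higher with CS (median log2 ratio 0.40), and among females 7 of 69 (−0.33), and after removal of the length trend the medians were 0.09 and −0.16. The mitochondrial members had medians of 0.22 in males (6 of 7 higher) and 0.21 in females (7 of 7), and their pooled median was below 0 without the male control (−0.13) or the female CS library (−0.39).

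The α7E260A:G controls were far apart for the nuclear members. Cox6b1 had a level of 183.7 normalised CPM in males and 722.2 in females without CS and of 233.7 and 541.2 after CS (−0.32 ± 0.66 SE, edgeR adjusted p = 0.9997). Cox4i1 was at 326.7 and 1023 in the controls and at 438.2 and 794.9 after CS. Both CS libraries thus lay between the male and the female control. Without the female control the nuclear median was 0.93, and without the male control −0.71. Without the male CS library it was 0.23, and without the female CS library −0.71. Its direction thus changed when either the female control or the male CS library was left out.

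Sdha was the one member with both CS libraries above both controls, at 344.4 and 365.1 against 292.2 and 303.9 normalised CPM (0.19 ± 0.19), where 13.6% of all tested genes were arranged so. None lay under both controls (4.24% of all genes). The highest fitted values belonged to mt-Nd6 (0.46 ± 0.56), mt-Co1 (0.28 ± 0.45) and mt-Nd5 (0.24 ± 0.34), and the lowest to Atp5k, a subunit of the ATP synthase dimer (−0.48 ± 0.74), Ndufs4 of complex I (−0.44 ± 0.58) and Cox8a (−0.44 ± 0.57). Each of these values was smaller than its standard error.

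The CS responses of the 2 genotypes were then compared through the interaction term. No member and no gene (0%) was called by edgeR, with 0 members and 102 genes at an unadjusted p under 0.05 and 0 members called by DESeq2. The α7E260A:G minus the α7G response had a median of −1.05 over the nuclear members (66 of 69 below 0), 0.17 over the mitochondrial members and 0.03 over all genes. The nuclear median was −0.29 with the CDS offset. Cox8a had the lowest value, −1.77 ± 0.81 SE (edgeR adjusted p = 0.9973), followed by Atp5k (−1.74 ± 1.05) and Ndufa3 (−1.70 ± 0.93). The highest were mt-Nd6 (1.33 ± 0.79), mt-Nd5 (0.88 ± 0.47) and mt-Nd4 (0.40 ± 0.64). Without the female α7E260A:G control the nuclear median was 0.03 in place of −1.05, and the mitochondrial median was −0.20 without the female α7G control, −0.18 without the male α7E260A:G control and −0.28 without the female α7E260A:G CS library. With the CDS offset 6 members (mt-Nd6, Uqcrc1, Cox6a1, Cox5b, Ndufa3 and Ndufb2) among 233 genes had an unadjusted p under 0.05 and none was called.

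Uqcrc1 was among the members whose direction differed between genotypes in both sexes. It was at 180.4 and 146.5 normalised CPM in the male and female α7G controls and at 233.0 and 210.1 after CS, and at 170.6 and 221.1 in the α7E260A:G controls and at 146.4 and 180.8 after CS. Its interaction term was −0.78 ± 0.35 SE (edgeR adjusted p = 0.9973), and −0.78 ± 0.28 with the CDS offset.

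The genotypes were compared over both exposures, with 4 libraries each. The mitochondrial members were lower in α7E260A:G in the fit and the nuclear members were nearly level. Of the 76 members 0 were called, against 6 of 7190 genes (0.0834%). No member but 854 genes had an unadjusted p under 0.05, and DESeq2 called 0 members. The median log2 fold-change was −0.41 for the mitochondrial members (0 of 7 above 0), 0.09 for the nuclear members (51 of 69 above 0, and −0.03 when libraries were scaled by total counts) and 0.04 for all genes. The nuclear median was −0.43 without the female α7E260A:G control, −0.17 without the female α7E260A:G CS library and −0.01 without the male α7G control, and the mitochondrial median was below 0 under every alternative run. With the CDS offset the medians were −0.41 and 0.01, 2 members (mt-Nd5 and Ndufc2) among 1407 genes had an unadjusted p under 0.05, and 0 members were called against 6.62% of all genes.

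mt-Nd5 had the lowest value, at 3935, 5641, 3300 and 2788 normalised CPM in the α7G libraries (male and female control, male and female CS) and 2341, 2543, 2333 and 3691 in the α7E260A:G libraries. Its log2 fold-change was −0.50 ± 0.24 SE (edgeR adjusted p = 0.494). mt-Cytb was at 7212, 12411, 11214 and 9057 in α7G and at 4518, 8951, 5436 and 10454 in α7E260A:G (−0.44 ± 0.37), and mt-Nd6 had −0.42 ± 0.39. In both genes shown the ranges of the genotypes overlapped, the female α7E260A:G CS library being above 2 of the α7G libraries.

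No member was higher in all 4 α7E260A:G than in all 4 α7G libraries or lower in all, against 4.42% and 3.74% of all tested genes. Pair by pair, the mitochondrial members had median log2 ratios of α7E260A:G over α7G of −0.69 in control males, −0.35 in control females and −0.91 in CS males, and of 0.23 in CS females, where 7 of 7 were higher. The nuclear members had −0.24, 1.14, −1.13 and 0.07 in the same pairs. The genotype difference of the nuclear members thus changed direction between pairs. Macrophage and type II transcripts, whose levels given above did not overlap between the genotypes, moved with this comparison, and their part in the values of the members was not tested.

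The nuclear genes at the upper end were Cox6b1 (0.38 ± 0.47), Uqcrb (0.36 ± 0.41) and Ndufa1, an accessory subunit of complex I (0.35 ± 0.48). Each value was smaller than its standard error. CS against control over both genotypes gave no call among the members or all genes (0%) by edgeR, with 0 members and 545 genes at an unadjusted p under 0.05 and 0 members called by DESeq2. The median log2 fold-change was 0.38 for the nuclear members (68 of 69 above 0, median 0.13 with the CDS offset), 0.11 for the mitochondrial ones (−0.01 with the CDS offset) and 0 for all genes. Ndufa4, Ndufb2 and Ndufb6 had the highest values (0.57 ± 0.45, 0.56 ± 0.38 and 0.55 ± 0.45), and no member separated the 4 CS from the 4 control libraries.

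The members not tested for low counts included the tissue forms of complex IV. Cox4i2, the lung and hypoxia form of subunit IV, had 3 to 39 counts per library (mean 17.4), while its partner Cox4i1 had a mean of 623.0 normalised CPM. Cox6a2, the heart and muscle form of subunit VIa, was at 6.73, 7.86, 13.4 and 17.8 normalised CPM in the α7G libraries (male and female control, male and female CS) and at 2.98, 11.6, 1.17 and 4.86 in the α7E260A:G libraries. In α7G both CS libraries were above both controls, and in α7E260A:G both were below the female control. Cox6b2, the testis form of VIb, had 117 to 286 counts (mean 197.8, just under the minimum), and the muscle forms Cox7a1 and Cox8b had 7 to 48 and 0 to 5 counts. Cox7b2 and Cox8c had at most 2 counts. The summed level of 10 heart and skeletal muscle markers was 16.3 to 27.7 normalised CPM, with Nppa at or under 3 counts in every library. Among other untested members Ndufa12, Ndufs5 and Atp5j2 had mean counts of 188.9, 111.2 and 159.1. Ndufa4l2, a relative of Ndufa4 induced by hypoxia, had 1 to 11 counts.

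Genes that serve the complexes without being part of them were read from lists. None of their tested genes was called by edgeR in any of the 5 comparisons. For CS in α7G the median log2 fold-change was 0.52 for 15 tested genes of the outer membrane and import (14 above 0) and 0.45 for 9 electron and adenine nucleotide carriers and uncouplers (9 above 0). It was 0.20 for 7 complex I assembly factors, 0.16 for 4 assembly factors of complexes II, III and V, and 0.47 for 3 cytochrome c oxidase assembly factors. It was 0.14 for 6 genes of mtDNA maintenance and transcription, −0.08 for 10 of mitochondrial RNA processing, −0.15 for 8 transcriptional regulators and 0.04 for 17 genes of the citric acid cycle, where that of all tested genes was −0.02. With the CDS offset these medians were, in the same order, 0.08, 0.23, 0.09, −0.25, 0.05, 0.23, 0.12, −0.14 and 0.07. Short genes led here too without the offset. Timm8b, an import chaperone with a CDS of 249 bases, had 1.34 ± 0.66 SE and 0.42 with the CDS offset, Tomm7 of the outer membrane translocase (165 bases) 1.23 ± 0.72 and 0.08, and Cox17, a copper chaperone for complex IV (189 bases), 1.15 ± 0.67 and 0.05.

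Citrate synthase (Cs), often used as a measure of mitochondrial mass, was nearly level, at 181.3 and 175.0 normalised CPM in the α7G controls, 186.6 and 171.8 after CS, 181.5 and 187.0 in the α7E260A:G controls and 183.0 and 182.1 after CS. Tfam, which packages mtDNA and takes part in its transcription, was at 39.8 and 45.5, 44.6 and 39.3, 21.8 and 41.1, and 29.6 and 39.1 in the same order (genotype log2 fold-change −0.36 ± 0.25, edgeR adjusted p = 0.687). Lrpprc, which stabilises mitochondrial mRNAs, was at 86.4 and 84.5 in the α7G controls and 58.9 and 66.1 after CS (−0.44 ± 0.19, and 0.11 with the CDS offset, CDS of 4176 bases). Ucp3, an uncoupling protein, was the list gene furthest apart between the genotypes, at 9.30 to 19.9 in the 4 α7G and 27.6 to 32.4 in the 4 α7E260A:G libraries (0.92 ± 0.23, edgeR adjusted p = 0.158). Nrf1 and Esrra, regulators of the nuclear subunits, had 0.21 ± 0.32 and 0.09 ± 0.23 for CS in α7G. They were among 3 of the 8 tested regulators above 0, and 5 were below. The lowest were Foxo3 (−1.09 ± 0.53), Creb1 (−0.72 ± 0.31) and Gabpa (−0.43 ± 0.24), each with an edgeR adjusted p of 0.589.

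Promoters of the nuclear members were read as a description only. Most of these members were high and low in the same libraries, which also divided by length slope as given above. The part of the promoters in the levels was not tested. RefSeq windows of GRCm38.p6, from 250 bases before to 50 after the start site, were at hand for 69 of 87 nuclear symbols (75 windows) and for 27025 genes in all (32851 windows). These 69 symbols include untested members, as Atp5g2 and Atp5l, and are not the same set as the 69 tested nuclear members. The NRF1 motif CGCATGCG, which reads the same on both strands, was in the windows of 9 of these 69 symbols (13.04%, and 2.07% of all genes). CCGGAAGT, bound by GABP, was in 5 (7.25%, and 4.31% of all genes), AAGGTCA, bound by ERRalpha, in 8 (11.6%, and 5.38%), and TATAAA in 7 (10.1%, and 15.7%), each on either strand. The member windows had a median GC content of 57.3%, and all windows 52.7%. Matches for NRF1 in 5 members are shown with the motif in capitals, on the strand of the gene. A match is a description of the letters, and binding was not measured.
Atp5j, chr16:84835100-84835139, minus strand: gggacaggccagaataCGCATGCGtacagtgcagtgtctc
Atp5k, chr5:108434425-108434464, minus strand: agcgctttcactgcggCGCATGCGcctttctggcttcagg
Cox6a1, chr5:115349096-115349135, minus strand: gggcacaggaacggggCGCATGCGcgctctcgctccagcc
Ndufa11, chr17:56717687-56717726, plus strand: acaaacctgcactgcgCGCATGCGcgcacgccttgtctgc
Ndufa8, chr2:36049339-36049363, minus strand: tgcgcgtcgctggagaCGCATGCGc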

How the data were processed

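RNA-Seq libraries were prepared by the authors from CD45-depleted cells of the distal lung with a stranded poly(A) kit, and per the submitters' processing notes and the study's methods reads were aligned with STAR to mm9 (NCBIM37) and counted on coding sequences with HTSeq. The deposited values are raw counts for 22756 genes in each of 8 libraries, with no normalisation. All 22756 identifiers were found in GENCODE M1, which gave coordinates and the CDS and transcript lengths. Settings for strand and for reads with more than 1 position are not given in the sources used here.

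As in the study, testing was kept to genes averaging 200 or more counts over the libraries, without immunoglobulin, histocompatibility, Gm and ribosomal subunit names (7190 genes). The test was edgeR 4.0.16 (glmQLFit and glmQLFTest, R 4.3.3, limma 3.58.1) with TMM normalisation, a model of the 4 groups with no term for sex, and Benjamini-Hochberg adjustment over all tested genes at 0.05. The common dispersion was 0.0767. Standard errors are the log2 fold-change over the square root of F. For the length offset, log2 deviations of a library were smoothed on log2 length by lowess (span 0.667). Males were taken as replicate 1 and females as replicate 2. Scripts were tested on simulated data. Errors of a group are those of 2 libraries, and the floor of 3 counts covers counting error only.

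Other settings tried were DESeq2 1.42.0, total-count scaling, wider filters (filterByExpr, 14140 genes, or any gene counted, 17542 genes), offsets for CDS and for transcript length, sex as a block, the libraries of 1 genotype only, and leaving out each library in turn. The members and lists were chosen with earlier results of these data known. Named genes were, for each comparison, the 3 members with the highest and the 3 with the lowest log2 fold-change, the mitochondrial members, the core subunits of each complex, the isoform pairs and the pathway lists, and a few chosen after their values were seen. Copies were counted with exact windows of 36, 50 and 100 bases, and mtDNA was aligned with BLAST 2.17.0. Promoters came from RefSeq. The values of 1 member are not reported here singly. Python 3.11.15, numpy 2.4.6, pandas 2.3.3, scipy 1.17.1 and matplotlib 3.10.9 were used.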

Additional observations from a re-analysis of the deposited data

Results flagged for a closer look

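The levels of 86 members with more than 3 counts in every library, and 10 sums over complexes, were checked for a library far from the other 3 of its genotype in 192 groups of 4, by Dixon's ratio at its 95% critical value, which flags about 1 in 20 groups by chance. The check picked out mt-Nd5 in the female α7E260A:G CS library (3691 normalised CPM, ratio 0.845, with 2333 to 2543 in the other 3) and mt-Nd6 in the female α7G control (75.9 normalised CPM, ratio 0.912, with 29.6 to 33.6 in the other 3). Both genes have their other values in the report.

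In 5 of these members the CS libraries moved one way in both sexes of α7G and the other way in both sexes of α7E260A:G. The share of all genes arranged so was not counted, so nothing about the members is read from this number. The mean CS response in α7E260A:G minus that in α7G was 33.0 normalised CPM for Ndufs1, −90.3 for Uqcrc1, −6.7 for Atp5sl, −13.8 for Ndufa12 and −12.6 for Cox6a2. In the edgeR interaction test Ndufs1 had a log2 value of 0.24 ± 0.33 SE, Uqcrc1 of −0.78 ± 0.35 and Atp5sl of −0.40 ± 0.31, each with an adjusted p of 0.9973. With the CDS offset the log2 fold-changes in α7G and α7E260A:G were 0.15 and 0.23 for Ndufs1 and −0.09 and −0.22 for Atp5sl. These no longer differed in sign, whereas those of Uqcrc1 did (0.42 and −0.36). For Ndufa12 and Cox6a2, which were under the count minimum, the difference was not tested.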

How the results depend on the processing

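No member was called in any of the 5 comparisons with all 8 libraries under edgeR, DESeq2, scaling by library size, filterByExpr, the filter of 1 count, either length offset, sex as a block with or without the CDS offset, or with any 1 library left out (0 to 0 members). A fit of the α7G libraries alone called 47 members for CS in α7G (1150 of 7190 genes), and 33, 60, 14 and 40 without its male control, female control, male CS and female CS library (of 620, 2408, 295 and 649 called genes, with 1 group then a single library assumed to vary like the other), and 0 with the CDS offset. The cause of this was not tested. Where the calls over all genes are not given beside a 0, as for DESeq2, nothing particular to the members is read from it.

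The mitochondrial minus the nuclear median log2 fold-change for CS in α7G, −0.84, was −0.45 with the CDS offset, also in the α7G fit alone, and −0.38 with sex as a block and the offset together. With the transcript length offset the medians themselves were −0.58 (mitochondrial) and 0.11 (nuclear), so the size of the difference depended on the length used. Leaving out 1 library gave differences of −1 to −0.68. The same value for CS over both genotypes (−0.27) ranged from −0.5 to −0.19, for CS in α7E260A:G (0.32) from −0.16 to 0.57, for the genotypes (−0.50) from −0.62 to −0.19, and for the difference of responses (1.22) from 0.73 to 1.49. Among 6688 values of single genes under the alternatives, 5793 kept direction and side of the threshold, 194 became called (all in fits of the α7G libraries alone), and 701 changed sign between uncalled values.

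Males and females share a number but not an animal, and their deviations did not run together in all groups (correlations of −0.09 to 0.84 between groups). With sex as a replicate block the mitochondrial minus nuclear medians were −0.87, 0.23, 1.19, −0.42 and −0.31 for CS in α7G, CS in α7E260A:G, their difference, genotype and CS over both, and 0 members were called. The count minimum left 25 members untested, and each group has 2 libraries.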
